A study of Mus musculus with 4 samples.

Results

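The 7 genes described here belong to the cardiac energy shuttle. They are the cytosolic creatine kinases Ckm and Ckb, the sarcomeric mitochondrial creatine kinase Ckmt2, the adenylate kinase Ak1, the adenine nucleotide translocators Slc25a4 and Slc25a5, and the creatine transporter Slc6a8. The members were taken by symbol, without use of any measured value, and make up 7 of the 32285 mouse genes counted in each of 4 single-nucleus RNA libraries. Each library came from whole hearts of wild-type mice at postnatal day 12. The animals had received saline (control) or AAV9-YAP5SA on day 7, and the dams had 5 days of either chow or high-fat feed (HFD). The resulting groups are control chow, YAP5SA chow, control HFD and YAP5SA HFD, with 1 library in each. YAP5SA is a form of the Hippo pathway co-activator YAP that cannot be switched off by phosphorylation, and the cardiac troponin T (cTNT) promoter of the vector drives it in cardiomyocytes.

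In heart muscle, ATP leaves the mitochondrial matrix through an adenine nucleotide translocator. Mitochondrial creatine kinase uses it to charge creatine, and cytosolic creatine kinase at the myofibrils and ion pumps turns phosphocreatine back into ATP. Adenylate kinase recovers ATP from ADP along a parallel route, and creatine itself is imported by Slc6a8 because heart muscle makes little of it. Ckb is the form of brain and of the early heart, and Ckm becomes the main cytosolic form as heart muscle matures; Slc25a4 is likewise the translocator of striated muscle, whereas Slc25a5 is found in most dividing cells.

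The treatment field of the YAP5SA chow library names the high-fat diet and that of the control HFD library names chow, so the diets below are those of the sample titles. Controls received saline and no empty vector, so vector and cargo cannot be told apart. The YAP5SA chow library alone came from male tissue, with 298 UMIs of Xist and 4760 of Ddx3y over all barcodes, against 106671 to 154625 and 1 to 17 in the others; Slc25a5 and Slc6a8 lie on the X chromosome. The labels do not say how many hearts entered a library, and no mouse gene row counts the transgene alone. Levels of mouse Yap1, at 106 to 127 CPM, therefore do not check the labels. CPM (counts per 1e6) is a gene's UMIs over all UMIs of the same sum, scaled to 1e6. The 6 added features that are not mouse genes held 0%, 0.00116%, 1.74e-06% and 0.000399% of UMIs in control chow, YAP5SA chow, control HFD and YAP5SA HFD. They were left out, and whether they mark the vector was not tested.

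The 4 libraries held 6977 to 11158 barcodes and 43408234 to 61191454 UMIs, and 6048 to 10009 nuclei per library passed the filters at a median of 4166 to 5045 UMIs. Between 11 and 34 barcodes were shared by any pair of libraries, at most 0.372% of the smaller one. Clustering without the members and the other energy shuttle genes gave 23 clusters, of which 8 with 16402 nuclei carried cardiomyocyte markers. Cardiomyocyte-like nuclei numbered 3543, 4769, 3009 and 5081 in control chow, YAP5SA chow, control HFD and YAP5SA HFD, the order kept below for every set of 4 values. In YAP5SA libraries the muscle markers themselves stood lower: the myosin gene Myh6 had 5562, 2438, 5631 and 2685 CPM in these nuclei, and Ttn, the gene of the giant sarcomere protein titin, had 19072, 11731, 19812 and 13186 CPM. Tnnt2, the gene of cardiac troponin T, had 2911, 2318, 3142 and 1612 CPM.

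The upstream sequences of the pair of cytosolic creatine kinase genes are shown first, because Ckm was called lower in both cell classes described below, while Ckb was called higher in fibroblast-like nuclei and not called in cardiomyocyte-like nuclei. Both come from RefSeq on GRCm38.p6, read 5′ to 3′ on the gene's strand, and capitals mark motif matches. The Ckb stretch lies on the minus strand at chr12:111672339-111672588 and ends 1 base before the transcription start. The Ckm stretch lies on the plus strand at chr7:19410844-19411024, 70 to 250 bases before the RefSeq start, and stops where GENCODE places an exon.
Ckb: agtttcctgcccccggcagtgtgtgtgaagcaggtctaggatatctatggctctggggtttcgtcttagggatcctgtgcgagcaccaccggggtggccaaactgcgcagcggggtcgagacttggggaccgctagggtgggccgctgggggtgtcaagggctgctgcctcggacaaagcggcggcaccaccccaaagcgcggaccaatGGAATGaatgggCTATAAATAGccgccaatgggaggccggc
Ckm: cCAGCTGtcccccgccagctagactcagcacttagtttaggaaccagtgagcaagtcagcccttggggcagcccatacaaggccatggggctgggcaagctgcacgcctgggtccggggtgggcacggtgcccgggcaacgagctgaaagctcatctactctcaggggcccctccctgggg
In Ckb the capitals are a match, on the opposite strand, to CATTCC, the element bound by the TEAD partners of YAP, 36 to 41 bases before the start, and a match to the MEF2 motif 20 to 29 bases before it. In Ckm they are an E-box (CANNTG) 244 to 249 bases before the start. Of 32851 mouse promoters searched over the same 250 bases on both strands, 12.6% held the TEAD element, 0.508% the MEF2 motif and 66.2% an E-box.

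Among the other members with a RefSeq promoter (6 of 7 have one, and Ak1 has several), the TEAD element was found 44 to 49 bases before the start of Slc25a5. The motif of estrogen-related receptors (AAGGTCA, held by 4.08% of promoters) was found 84 to 90 bases before 1 of the Ak1 starts. E-boxes stood before Ak1, Slc25a4, Ckmt2 and Slc25a5. No CArG box, held by 1.47% of promoters, was found in any of these windows. These matches describe letters only. In GENCODE vM21 on GRCm38, Ckm lies on chromosome 7 at 19404776 to 19422841, Ckb on 12 at 111669361 to 111672338, Ckmt2 on 13 at 91853387 to 91876885, Ak1 on 2 at 32621758 to 32635058, Slc25a4 on 8 at 46206797 to 46211284, Slc25a5 on X at 36795651 to 36798807 and Slc6a8 on X at 73673150 to 73682502. No counted gene overlaps a member on its own strand, whereas A930016O22Rik and 1700119I11Rik overlap Ckm and Ckmt2 on the opposite strand.

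Whether YAP5SA changed these genes in heart muscle was asked by summing UMIs over the cardiomyocyte-like nuclei of each library and comparing the 2 YAP5SA with the 2 control libraries by edgeR's quasi-likelihood test. Ckm, Slc25a4 and Slc6a8 fell, and the other 4 members did not pass the threshold of an adjusted p under 0.05. Among all 16900 genes tested, 4.41% were called lower and 7.92% higher. Of the 7 members, 6 were lower in both YAP5SA libraries than in both controls, which held for 23.6% of all genes tested, and none was higher in both, which held for 35.4%. The median log2 fold change of all genes tested was 0.04. These p-values measure the spread between single libraries of different diet, and in the YAP5SA arm of different sex.

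**Figure D1:**
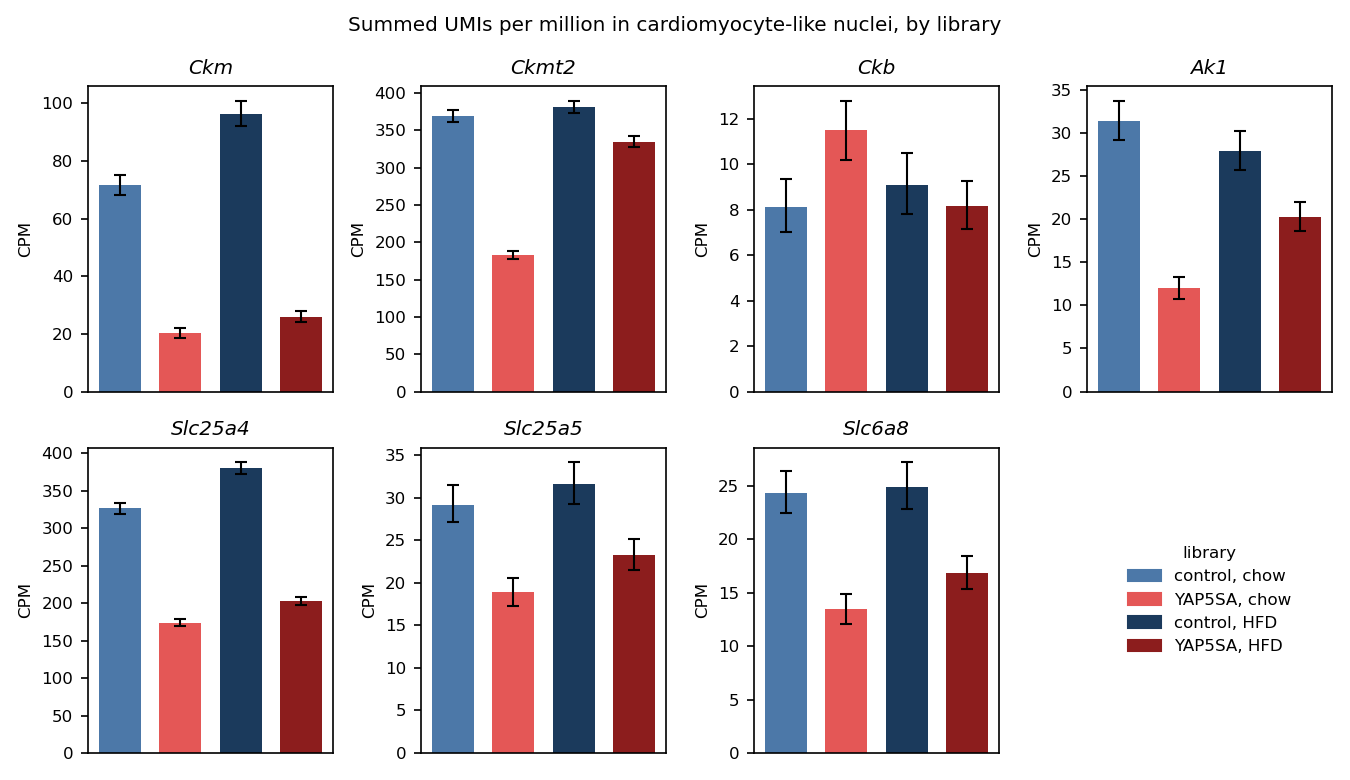
Bars give the level (CPM) of each member in cardiomyocyte-like nuclei of the 4 libraries, and error bars the exact Poisson 95% interval, which covers counting error only. Ckm stands at 20.2 and 26.0 CPM in the YAP5SA libraries against 71.6 and 96.2 in the controls, Ckb at 8.13 to 11.5 in all 4.

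Ckm, the muscle subunit of cytosolic creatine kinase, stood at 71.6, 20.2, 96.2 and 26.0 CPM. Both YAP5SA libraries lay far below both controls, and the gap between the arms was wider than the spread within either. The fitted log2 fold change of YAP5SA minus control was -1.95 (SE 0.23, edgeR adjusted p = 0.00530), with 2 libraries in each arm. The 2 diets gave nearly the same contrast, -1.83 on chow (95% interval -1.97 to -1.69) and, under HFD, -1.89 (-2.01 to -1.77), where each interval covers counting error between 1 library and 1 library. Ckm was seen in 33.9%, 10.1%, 42.8% and 12.6% of nuclei. With every nucleus thinned to 1000 UMIs, which left out 4 to 13 nuclei per library, these shares were 6.59%, 2.46%, 8.65% and 2.92%. Fibroblast-like nuclei, which should lack this gene, gave thinned shares of 1.47%, 0.658%, 1.69% and 0.753%; their median depth before thinning was 3653 to 4206 UMIs against 4904 to 6009 in cardiomyocyte-like nuclei.

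Ckmt2, the creatine kinase on the outer face of the inner mitochondrial membrane of muscle, stood at 369, 183, 381 and 335 CPM. The YAP5SA chow library was far below the rest, and the YAP5SA HFD library was closer to the controls than to it. The log2 fold change over both diets was -0.62 (SE 0.26, edgeR adjusted p = 0.167), which did not pass. By diet it was -1.01 on chow (95% interval -1.06 to -0.96) but -0.19 under HFD (-0.23 to -0.14). Without the YAP5SA HFD library the value was -1.03 (edgeR adjusted p = 0.0206). In this and every later fit without 1 library, an arm is a single library, here the male YAP5SA chow library, and the spread comes from the other arm alone, so these p-values assume that the single library varies like that arm and do not show stability. Thinned shares of nuclei with a Ckmt2 UMI were 29.1%, 16.4%, 29.5% and 27.7%, against 0.493% to 1.46% in fibroblast-like nuclei.

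Ckb, the brain-type cytosolic subunit, was scarce in these nuclei, at 8.13, 11.5, 9.07 and 8.15 CPM. The arms overlapped, since YAP5SA HFD was level with the controls. The log2 fold change was 0.13 (SE 0.29, edgeR adjusted p = 0.810), and it stood at -0.26 without the YAP5SA chow library. Thinned shares of nuclei with a UMI were 0.876%, 1.49%, 0.799% and 0.691%.

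The balance of the 2 cytosolic subunits was read as the percentage of Ckm among Ckm plus Ckb UMIs, a measure that does not depend on library scaling. It is used only to compare libraries, since 3′ counts of different genes are not on a common length scale. The share was 89.8% (95% Clopper-Pearson interval 88.3 to 91.1) in control chow, 63.7% (60.4 to 66.9) in YAP5SA chow, 91.4% (90.1 to 92.5) in control HFD and 76.1% (73.3 to 78.8) in YAP5SA HFD. Both YAP5SA libraries lay below both controls. With 2 libraries against 2 an exact permutation test cannot pass the threshold, so none is given. The ratio of Ckmt2 to Ckm UMIs, a measure chosen after its values were seen, was 5.15, 9.07, 3.96 and 12.9.

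Ak1, the cytosolic adenylate kinase of muscle, stood at 31.4, 12.0, 27.9 and 20.3 CPM. Both YAP5SA libraries were below both controls, by different amounts. The log2 fold change was -0.96 (SE 0.25, edgeR adjusted p = 0.0524) and missed the threshold. Over 13 alternative settings its adjusted p ran from 0.00736 to 0.524 and passed in 5, among them DESeq2 (0.00932). The contrast was -1.39 on chow (95% interval -1.59 to -1.20) but -0.46 under HFD (-0.63 to -0.29).

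Slc25a4, the translocator of striated muscle, stood at 327, 174, 380 and 203 CPM. The arms were well apart, and the contrast was -0.91 on chow (95% interval -0.96 to -0.86), almost the -0.90 seen under HFD (-0.95 to -0.85). The test gave -0.98 (SE 0.18, edgeR adjusted p = 0.0216). Slc25a5, the translocator of most other cell types, stood at 29.2, 18.9, 31.6 and 23.3 CPM, with a log2 fold change of -0.61 (SE 0.19, edgeR adjusted p = 0.0843) that did not pass. Slc25a4 made up 91.8%, 90.2%, 92.3% and 89.7% of the UMIs of the 2 translocators. Their balance thus moved by a few percentage points between libraries, far less than that of the creatine kinases.

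Slc6a8, the creatine importer of the plasma membrane, stood at 24.3, 13.5, 24.9 and 16.8 CPM. Both YAP5SA libraries were lower, and the test gave -0.78 (SE 0.19, edgeR adjusted p = 0.0464). This call was lost without the control chow (0.177), YAP5SA chow (0.0668) or control HFD library (0.276, edgeR adjusted p in each case). The call of Slc25a4 was lost without the control HFD library (edgeR adjusted p = 0.116), and Ckm had edgeR adjusted p values of 0.000149 to 0.0162 in the 4 such fits, under the assumption given above.

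The cardiomyocyte-like class is made of different clusters in the 2 arms, so each member was also read within clusters, which had been formed without these genes. Cluster 6 held 50.4%, 4.19%, 62.5% and 1.22% of the class and cluster 5 held 27.6%, 2.37%, 18.0% and 1.26%, so that both were mainly control nuclei. Cluster 8 made up 2.23% and 0.665% of the class in the controls and 14% and 42.5% in the YAP5SA libraries. Clusters 21 and 22 were nearly all YAP5SA nuclei: cluster 21 made up 27.0% of the class in YAP5SA chow and 17.2% in YAP5SA HFD, cluster 22 28.6% and 15.8%. Cluster 22 was led by Cemip, a gene of hyaluronan breakdown, and carried 6 of 14 cardiomyocyte markers.

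**Figure D2:**
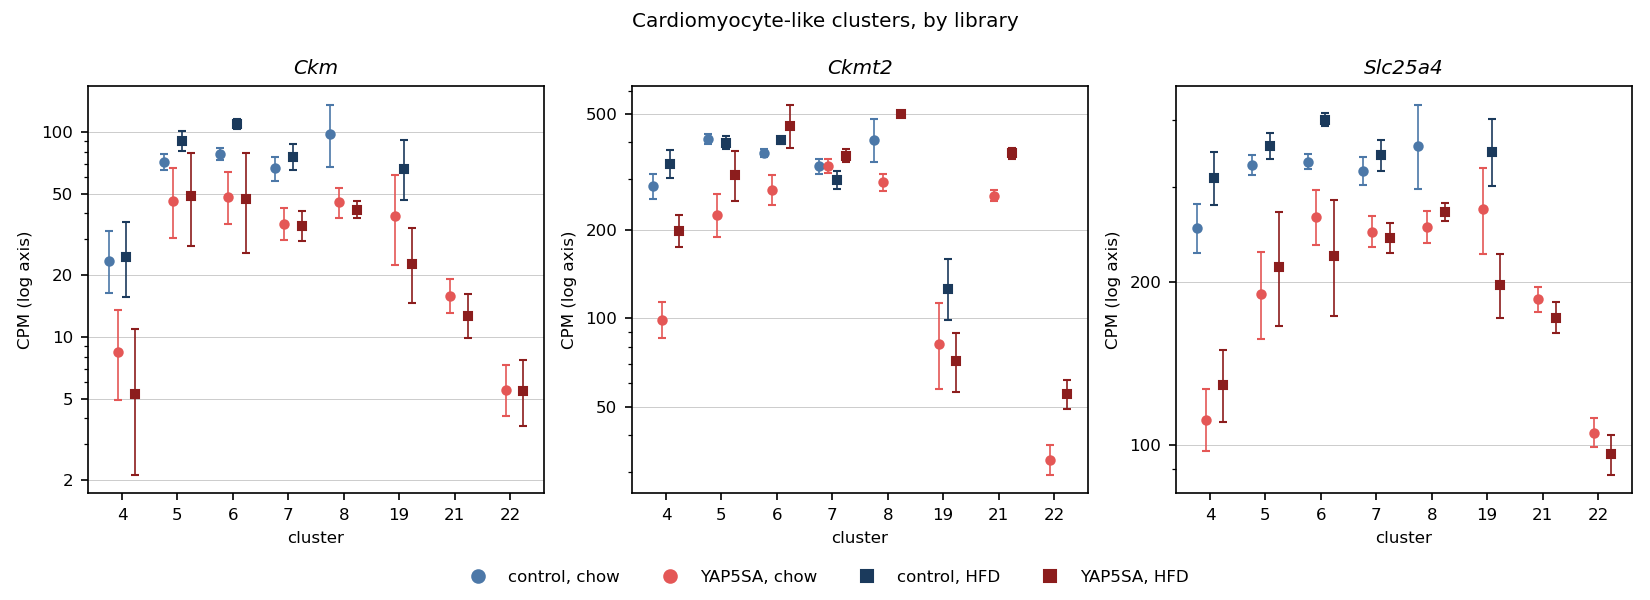
Points give the CPM (log axis) of Ckm, Ckmt2 and Slc25a4 in each cardiomyocyte-like cluster and library with 50 or more nuclei, and bars the exact Poisson 95% interval. Ckm and Slc25a4 are lower in YAP5SA libraries within every cluster that both arms share, Ckmt2 in some of them, and all 3 are lowest or near lowest in cluster 22.

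Ckm was lower in YAP5SA than in control in each of 5 clusters with 50 or more nuclei of both libraries on chow (clusters 4 to 8, log2 fold -1.46 to -0.62) and in each of 5 on HFD (clusters 4 to 7 and 19, -2.14 to -0.85). In cluster 7, the cluster with over 100 nuclei of every library, it stood at 66.4, 35.7, 75.4 and 34.8 CPM. That is above the 15.9 and 12.7 CPM of cluster 21 and the 5.50 and 5.43 CPM of cluster 22 in YAP5SA chow and YAP5SA HFD. Cluster 4, which carried markers of dividing cells, held little Ckm in either arm (23.5, 8.45, 24.5 and 5.29 CPM). Restricted to cluster 7, the log2 fold change of Ckm was -1.06 (edgeR adjusted p = 0.0660), and no member was called there; 79 of all genes passed in that smaller sum. Without cluster 22, an alternative chosen after the data were seen, Ckm fell by 1.63 (edgeR adjusted p = 0.0160), while Slc25a4 at -0.80 (0.0587) and Slc6a8 at -0.67 (0.105) were no longer called, against -0.98 and -0.78 with it.

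Slc25a4 followed the same pattern at smaller size, lower in 5 of 5 clusters on chow (-1.18 to -0.34) and 5 of 5 on HFD (-1.27 to -0.51). In cluster 7 it stood at 322, 248, 344 and 242 CPM. It was 105 and 95.9 CPM in cluster 22. Ckmt2 behaved differently: in cluster 7 it stood at 331, 331, 296 and 360 CPM, with no drop in the YAP5SA libraries. In cluster 22 it was 32.9 and 55.0 CPM, and in cluster 4 283, 98.9, 337 and 199. Its lower class total in YAP5SA chow thus went in part with the share of cluster 22. Without that cluster its log2 fold change over both diets was -0.30, and the contrast on chow was -0.51 against -1.01 with it. Cluster 21, 27.0% of the class in YAP5SA chow, held 262 CPM there, against 369 CPM in the control chow class. Besides cluster 4, levels were lower in clusters 5, 6 and 8. They were 411 against 226, 367 against 274 and 407 against 292 CPM in control chow and YAP5SA chow. Clusters 5 and 6 made up only 2.37% and 4.19% of the class in YAP5SA chow. The part of each cluster in the lower total was not tested.

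Ak1 was lowest in cluster 22, at 2.75 and 3.16 CPM, against 18.1 and 28.5 CPM of the same libraries in cluster 7. Slc6a8 varied less, at 11.1 and 8.59 CPM in cluster 22 and 29.6, 20.3, 26.3 and 24.5 CPM in cluster 7. Slc25a5 was 14.8 and 15.4 CPM in cluster 22 and 32.6, 23.3, 34.5 and 28.5 CPM in cluster 7. The Ckm share of cytosolic creatine kinase UMIs also differed between clusters of the same library. In YAP5SA chow it was 78.3% in cluster 7, 46.8% (95% interval 40.4 to 53.2) in cluster 21 and 38.2% (29.8 to 47.1) in cluster 22. In YAP5SA HFD the 3 values were 84.7%, 53.5% and 43.1%. Within cluster 7 it was 91.6% and 91.4% in the controls.

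An unnamed cluster of 506 shallow nuclei, cluster 3, which held markers of muscle and of fibroblasts together and was led by haemoglobin and atrial genes, had more of several members than the muscle nuclei. Ckm stood there at 207, 137, 237 and 178 CPM, and Slc25a4 at 723, 825, 820 and 1071 CPM. It was left out of the class; with it, the class test for Ckm gave -1.88 (edgeR adjusted p = 0.00683).

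Across the 8 classes with 30 or more nuclei in every library, the members fell into 3 kinds of pattern. Ckmt2, Ckm, Slc25a4 and Slc6a8 had their highest median in cardiomyocyte-like nuclei. For Ckmt2 and Slc25a4 even the lowest muscle library was above every library of the other 7 classes: 183 CPM against at most 95.2 for Ckmt2, and 174 CPM against at most 153 for Slc25a4. For Ckm the muscle range (20.2 to 96.2 CPM) overlapped those of macrophage-like (7.27 to 47.6), blood vessel endothelial-like (6.13 to 29.9), epicardial-like and several other classes. For Slc6a8 the range in muscle, 13.5 to 24.9 CPM, overlapped that in smooth muscle-like nuclei, 6.62 to 24.1. These overlaps arise across libraries. Within each library both genes were highest in cardiomyocyte-like nuclei among the 8 classes. The next class had 47.6, 13.2, 31.0 and 19.4 CPM of Ckm, from 29, 2, 25 and 13 UMIs. For Slc6a8 the margin was as small as 24.3 against 24.1 CPM in control chow. That value in smooth muscle-like nuclei came from 4 UMIs, against 569 UMIs in cardiomyocyte-like nuclei, too few to measure the margin.

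Ckb had the opposite order. It was highest in fibroblast-like (45.7 to 92.1 CPM) and smooth muscle-like nuclei (39.7 to 60.4), whose ranges overlapped. Macrophage-like, epicardial-like and blood vessel endothelial-like nuclei followed with ranges that overlapped each other, pericyte-like nuclei had 3.95 to 18.0 CPM, and cardiomyocyte-like (8.13 to 11.5) and endocardial-like nuclei (4.27 to 9.93) had the lowest medians. Slc25a5 was highest in blood vessel endothelial-like nuclei, 32.5 to 60.4 CPM, followed by macrophage-like nuclei, 27.9 to 41.7, whose range overlapped it. Its range in cardiomyocyte-like nuclei, 18.9 to 31.6 CPM, overlapped those of all classes but the blood vessel endothelial-like. Ak1 had its highest medians in cardiomyocyte-like (12.0 to 31.4 CPM) and fibroblast-like nuclei (10.7 to 43.9), and the order of these classes differed between arms. The rank of fibroblast-like nuclei came from the YAP5SA libraries. In control chow and control HFD they had 12.5 and 10.7 CPM, below the 18.0 and 14.9 CPM of macrophage-like nuclei, which came from 11 and 12 UMIs.

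**Figure D3:**
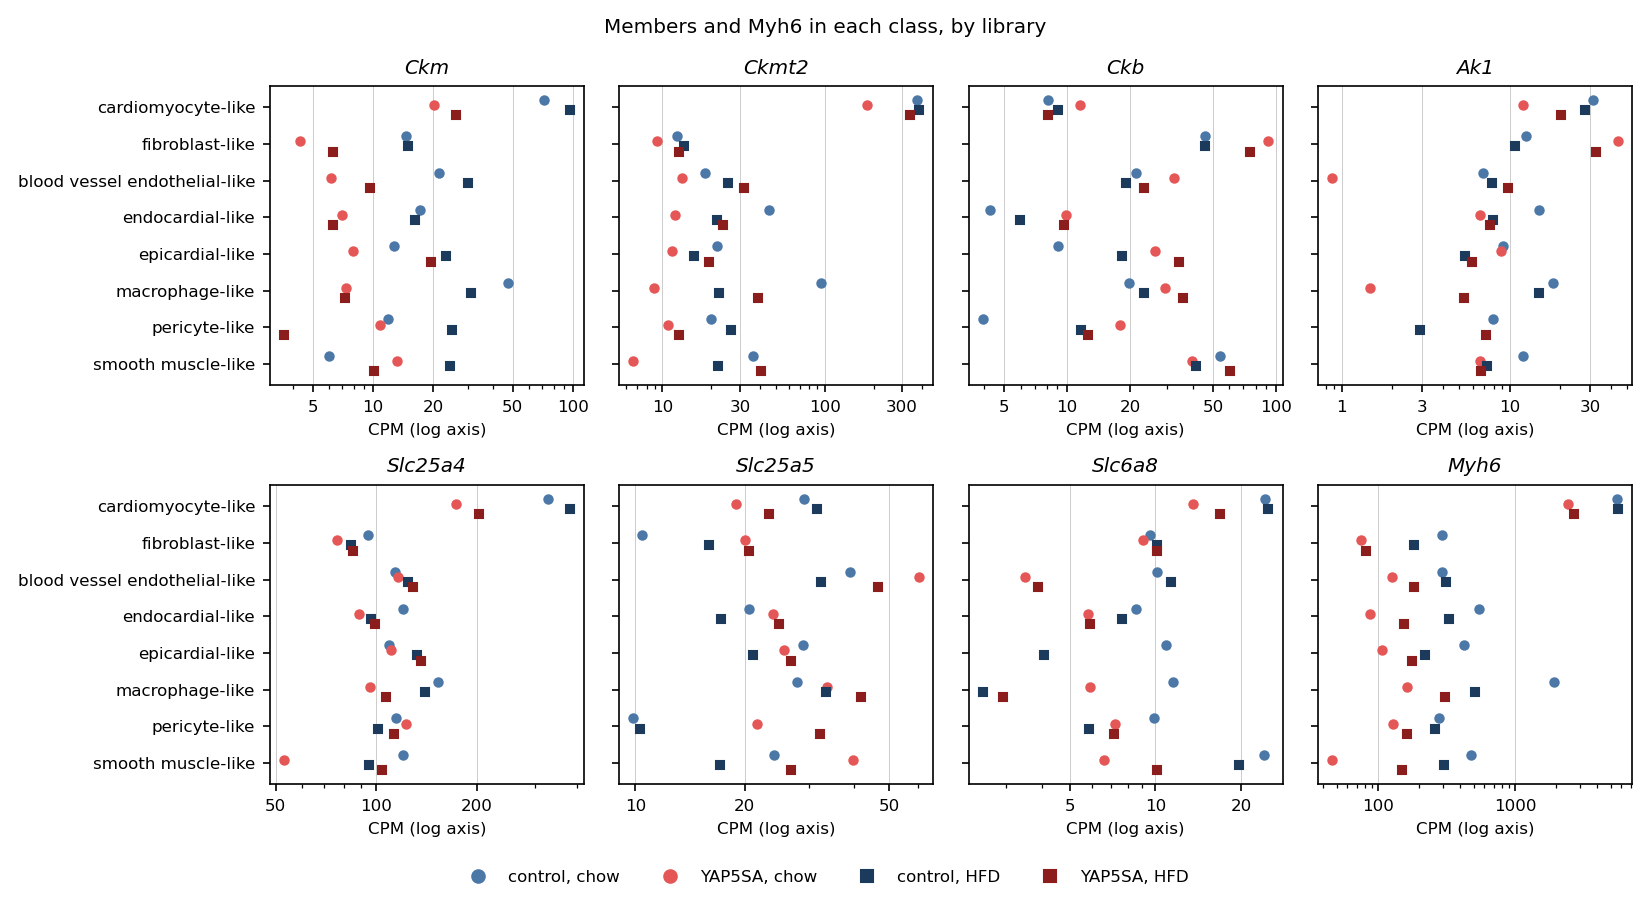
Each panel gives the CPM (log axis) of a member, or of the heart muscle gene Myh6, in 8 classes, with 1 point per library; points at 0 are not drawn. Ckm in non-muscle classes is mostly lower in the YAP5SA libraries, as is Myh6 there, while Ckb is highest in fibroblast-like and smooth muscle-like nuclei.

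Muscle RNA was present in every class. Myh6 stood at 294, 74.7, 183 and 82.2 CPM in fibroblast-like nuclei and Ttn at 327, 132, 254 and 123 CPM, both lower in the YAP5SA libraries. Tnnt2 was not, at 77.7, 96.9, 79.3 and 76.5 CPM, and in blood vessel endothelial-like nuclei it was higher in YAP5SA, at 98.2, 166, 130 and 170 CPM. Per 100 Myh6 UMIs, fibroblast-like nuclei held 5.02, 5.77, 8.22 and 7.68 Ckm UMIs, and cardiomyocyte-like nuclei 1.29, 0.828, 1.71 and 0.967. The ratio in fibroblast-like nuclei was thus above that of the muscle nuclei but differed little between arms. Cluster 3 gave 4.18, 5.60, 4.91 and 3.52. Ckb had 15.5, 123, 25 and 91.9 UMIs per 100 Myh6 UMIs in fibroblast-like nuclei, and Ak1 had 4.24, 58.8, 5.84 and 39.6. The lower Myh6 of the YAP5SA libraries raises such ratios, and those of all members but Ckm were higher there. Slc25a4, for example, had 32.3, 102, 46.0 and 104, and Slc25a5 had 3.53, 26.8, 8.76 and 25.1.

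In fibroblast-like nuclei, which numbered 1092, 1222, 2152 and 2272, Ak1 and Ckb rose in the YAP5SA libraries and Ckm fell; the other 4 members did not pass. Of the 15269 genes tested there, 7.01% were called higher and 5.69% lower. Ak1 stood at 12.5, 43.9, 10.7 and 32.5 CPM, with the arms well apart, and the test gave 1.62 (SE 0.23, edgeR adjusted p = 0.00379). Ckb stood at 45.7, 92.1, 45.8 and 75.5 CPM, and its log2 fold change was 0.76 (SE 0.17, edgeR adjusted p = 0.0206). The Ckb call was lost without the control chow (0.0772) or the control HFD library (0.115, edgeR adjusted p in both cases), and Ak1 passed in each of the 4 fits without 1 library.

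Ckm stood at 14.7, 4.31, 15 and 6.31 CPM in the same nuclei, and the test gave -1.57 (SE 0.27, edgeR adjusted p = 0.00818). Of the 3 muscle genes read in these nuclei, Myh6 and Ttn were lower in the same libraries and Tnnt2 was not, and the part of stray muscle RNA in this call was not tested. Slc25a5 stood at 10.4, 20, 16 and 20.6 CPM (log2 fold change 0.47, SE 0.24, edgeR adjusted p = 0.243). Slc25a4, at 94.9, 76.5, 84.1 and 85.4 CPM, gave -0.25 (SE 0.14, edgeR adjusted p = 0.284). Ckmt2 and Slc6a8 had overlapping arms at 9.21 to 13.5 and 9.02 to 10.1 CPM.

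The fibroblast-like class also changed its make-up, and Ckb and Ak1 differed between its clusters. Cluster 1, led by Ccbe1 and Scara5, held 82.8% and 84.9% of the class in the controls but 14.3% and 18.7% in the YAP5SA libraries. Cluster 2, led by matrix genes such as Tnc and Cilp, held 6.87%, 60.7%, 4.65% and 56.6%, and the dividing cluster 15 held 5.86%, 23.4%, 4.41% and 24%. Within cluster 1, Ckb stood at 50.8, 53.3, 49.6 and 55.4 CPM and Ak1 at 11.2, 11.3, 10.6 and 17.2 CPM, with overlapping counting intervals between arms. Such overlap does not show equal levels, and Ak1 was highest in YAP5SA HFD. In cluster 2, Ckb was 36.0, 103, 73.4 and 87.8 CPM and Ak1 44.0, 47.6, 21.4 and 40.9 CPM. In cluster 15 the arms were far apart, with Ckb at 18.9, 90.0, 19.9 and 67.9 CPM and Ak1 at 4.73, 52.2, 1.42 and 26.7 CPM, although the controls held only 64 and 95 nuclei there.

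**Figure D4:**
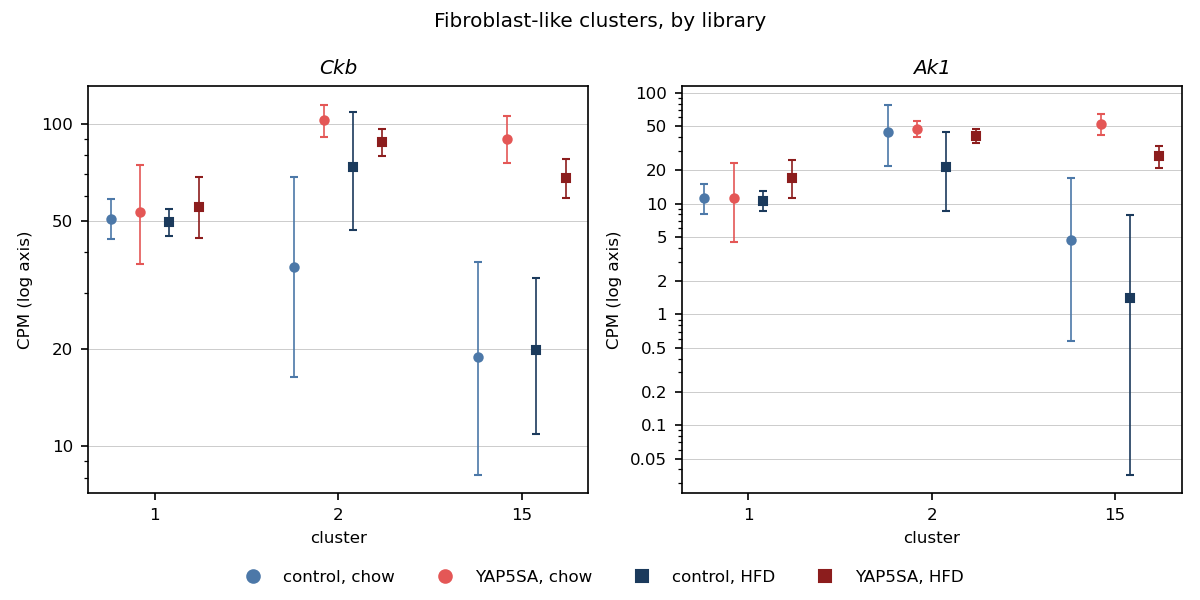
Points give the CPM (log axis) of Ckb and Ak1 in 3 fibroblast-like clusters by library, with exact Poisson 95% intervals. In cluster 1 the intervals of the 4 libraries overlap, with Ak1 highest in YAP5SA HFD, and the YAP5SA libraries lie above the controls in cluster 15.

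The difference between the 2 classes was tested itself, as the YAP5SA contrast in fibroblast-like minus that in cardiomyocyte-like sums, with library as a term. Of 17870 genes, 4.24% were called higher by this contrast and 8% lower. The 3 members called higher were Ak1 at 2.55 (SE 0.35, edgeR adjusted p = 0.00288), Slc25a5 at 1.08 (SE 0.23, edgeR adjusted p = 0.0194) and Slc25a4 at 0.70 (SE 0.19, edgeR adjusted p = 0.0475). The value for Slc25a5 lost its call without the YAP5SA chow library (edgeR adjusted p = 0.0628), and that for Slc25a4 without YAP5SA chow (0.0886) or control HFD (0.176). For Ckm the difference was 0.34 (SE 0.25, edgeR adjusted p = 0.435), and for Ckb it was 0.63 (SE 0.20, edgeR adjusted p = 0.0816). The value for Ckm cannot decide whether its fall differs between the classes. Stray muscle RNA would carry the muscle fold into the fibroblast-like sums, and its part was not tested.

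**Figure D5:**
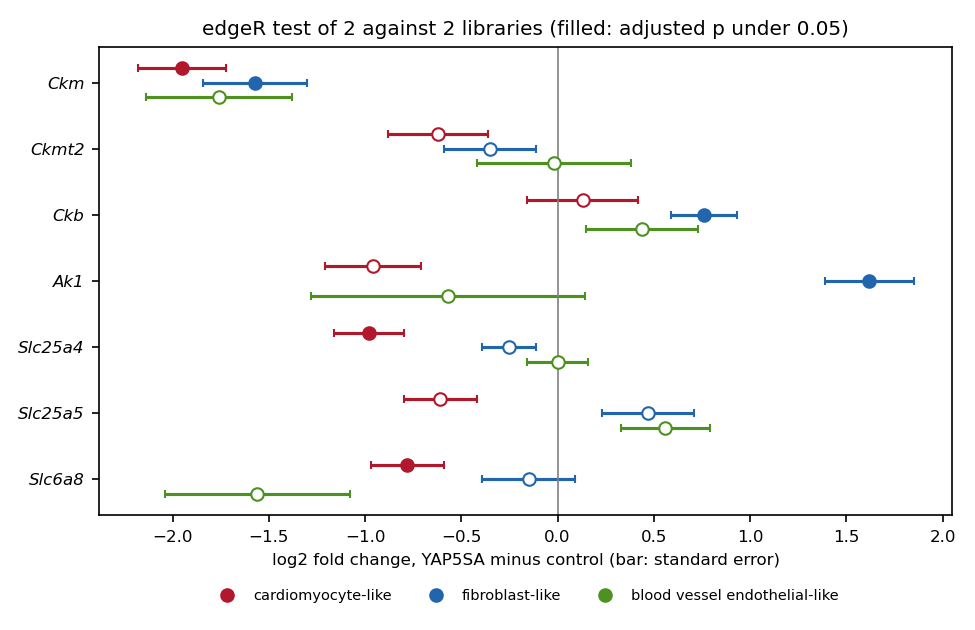
Points give the log2 fold change of YAP5SA minus control from the tests of 2 against 2 libraries, bars the standard error, and filled points an adjusted p under 0.05. Ckm lies between -1.95 and -1.57 in the 3 classes, while Ak1 lies at -0.96 in cardiomyocyte-like and 1.62 in fibroblast-like nuclei.

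In blood vessel endothelial-like nuclei no member was called by edgeR or DESeq2. By adjusted p, edgeR called 0.233% of 10735 genes higher and 0.261% lower. Before adjustment 3 members had an edgeR p under 0.05, but the share of all genes at that looser level was not counted. The 3 were Ckm, at 21.4, 6.13, 29.9 and 9.71 CPM, Slc6a8, at 10.1, 3.50, 11.3 and 3.88 CPM, and Slc25a5, at 39.0, 60.4, 32.5 and 46.6 CPM. Over all nuclei Ckm alone was called (-1.63, SE 0.17, edgeR adjusted p = 0.0114), where 0.489% of 19838 genes were called lower and 1.54% higher. Such sums move both with the share of muscle nuclei and with the RNA per nucleus, and the part of each was not tested. Cardiomyocyte-like nuclei made up 58.6%, 59.1%, 37.5% and 50.8% of each library, a share that was not lower in YAP5SA than in control on either diet.

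The maternal diet was compared between single libraries, without a test, and under the diets of the titles. The folds are of plain CPM, without edgeR's scaling factors, which were 1.003, 0.975, 0.948 and 1.078 for the cardiomyocyte-like sums. The share of all genes that moved each way was not counted. In the controls, 1 of 7 members was lower on HFD than on chow. Ckm moved most, by 0.43 (95% interval 0.33 to 0.52), followed by Slc25a4 at 0.22 (0.17 to 0.26), while Ckmt2 moved by 0.05 (0.00 to 0.09). In YAP5SA hearts 6 members were higher on HFD over the whole class, but the 2 libraries sat in different clusters: cluster 8 held 14% of the class on chow and 42.5% on HFD, and cluster 22 28.6% and 15.8%. Ckmt2 stood at 335 against 183 CPM, a log2 difference of 0.87 (0.82 to 0.92), and Ak1 at 20.3 against 12.0 CPM, a difference of 0.76 (0.57 to 0.97), while Ckb was lower (8.15 against 11.5 CPM, -0.49, -0.75 to -0.25). Within the 8 cardiomyocyte-like clusters Ckmt2 was lower on HFD in 1, with 499 against 292 CPM in cluster 8 and 367 against 262 CPM in cluster 21. Ckm, whose class level was 0.36 higher on HFD, was lower in 7 of the 8 clusters, but its counting interval covered 0 in every cluster. Slc25a4, 0.22 higher in the class, was lower in 5 of them, with the interval below 0 in 1. Ak1 was lower in 1, Slc25a5 in 2 and Slc6a8 in 4, and Ckb in 4 of the 7 clusters with 10 or more UMIs. The sex of the tissue and the titled diet changed together between the 2 YAP5SA libraries and cannot be told apart.

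The other genes of the shuttle were read from 4 lists, which hold 2 of the members too. In cardiomyocyte-like sums the list of creatine synthesis, transport and the remaining creatine kinase had 2 of 4 genes tested, of which Slc6a8 fell; Gatm, the first enzyme of creatine synthesis, was near the limit of detection at 0.471, 1.14, 0.781 and 2.86 CPM (log2 fold change 1.58, SE 0.58, edgeR adjusted p = 0.126). None of 12 adenylate and nucleoside diphosphate kinases tested was called by edgeR. The list's median log2 fold change was 0.02. Ak1, at an adjusted p of 0.0524 in edgeR, had an unadjusted p of 0.00678 and passed in DESeq2.

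Of 9 mitochondrial carriers and pores tested, 1 rose and 1 fell, with a median of -0.49. Slc25a24, a calcium-regulated ATP-Mg and phosphate carrier, rose from 1.41 and 0.732 CPM in the controls to 7.75 and 7.04 CPM in YAP5SA chow and YAP5SA HFD (2.71, SE 0.39, edgeR adjusted p = 0.00985). Ppif, the gene of cyclophilin D of the permeability transition pore, fell at 47.0, 25.9, 39.7 and 27.9 CPM (-0.76, SE 0.17, edgeR adjusted p = 0.0385). The phosphate carrier Slc25a3 and the channels Vdac1, Vdac2 and Vdac3 had values of -0.64 to -0.41 and did not pass.

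Of 10 genes of AMP sensing and deamination, 1 rose and 2 fell, with a median of 0.05. Prkag1, a regulatory subunit of AMP-activated kinase, fell at 102, 44.3, 108 and 42.8 CPM (-1.33, SE 0.17, edgeR adjusted p = 0.00736). Prkab1, a scaffold subunit of the same kinase, fell by 0.91 (SE 0.22, edgeR adjusted p = 0.0468), and the AMP deaminase Ampd2 rose from 5.35 and 3.12 to 13.7 and 10.1 CPM (1.44, SE 0.34, edgeR adjusted p = 0.0430). The catalytic subunit Prkaa2 stood at 350, 326, 323 and 363 CPM (-0.04, edgeR adjusted p = 0.904). The calls of Ppif, Prkab1 and Ampd2 were each lost without at least 1 single library, with edgeR adjusted p values up to 0.262, 0.312 and 0.156, and without cluster 22. That of Slc25a24 was lost by a small margin without cluster 22 (log2 fold change 1.99), and that of Prkag1 was lost only in cluster 7 alone (-0.86, edgeR adjusted p = 0.138) among 13 alternatives. Gatm, Prkaa2, Slc25a3 and the Vdac genes were named after their values were seen.

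The genes whose levels ran most like each member's were sought over 16 sums (4 classes in 4 libraries) among 10158 genes. These sums share libraries and depth, and between-class differences dominate them, so the correlations are a description. Ckm was closest to Cox7b, a subunit of cytochrome oxidase (r = 0.961), Mb, the gene of myoglobin (0.935), and Hopx (0.920). Ckmt2 was closest to Sh3bgr (0.993), Lrrc2 (0.988) and Coq8a (0.988), and Slc25a4 to Myl3, a ventricular myosin light chain (0.984), Kidins220 (0.971) and Acacb (0.970). Slc6a8 was closest to Ank1 (0.959), Ppara (0.953) and Ednra (0.932). Ckb was closest to Frmd4a (0.950), Cdc23 (0.949) and Gm15991 (0.949). Ak1 was closest to Mtx3 (0.909), Gm41555 (0.883) and Gm11655 (0.871), and Slc25a5 to Prickle3 (0.900), Ndufa8 (0.895) and Gm21057 (0.889). No gene thus ran as closely with Ak1 or Slc25a5 as several did with Ckmt2 and Slc25a4.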

How the data were processed

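Nuclei of 4 samples of whole mouse hearts (1 library per group) were measured by droplet single-nucleus RNA sequencing. The deposited matrices hold whole-number UMI counts per gene and barcode, made with Cell Ranger 7.1.0 against mm10 per the submitters' processing notes; 6 features that are not genes were left out. Nuclei with 500 or more genes and at most 5% mitochondrial UMIs were kept, and doublets removed with Scrublet (4.51% to 6.93% per library; in both chow libraries its own call marked under 0.5%, and the highest scores were removed instead). Clusters (scanpy 1.11.5, 3000 variable genes without the members and the other shuttle genes, 30 components, resolution 1, seed 0) were named "X-like" from marker lists; limits of the naming rule were set after the data were seen. Diets follow the sample titles.

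UMIs were summed per class and library. CPM is UMIs over the total of that sum times 1e6, with exact Poisson or Clopper-Pearson 95% intervals that cover counting error only. YAP5SA (2 libraries) was tested against control (2) by edgeR 4.0.16's quasi-likelihood test (TMM, low counts filtered, Benjamini-Hochberg over all genes), with DESeq2 1.42.0 (R 4.3.3) as an alternative; folds between single libraries add 0.5 counts and have no test. On simulated cardiomyocyte-like sums of 16964 genes, edgeR recovered 78% of genes changed by a log2 fold of 1 and 100% of those changed by 2. For the simulated contrast between fibroblast-like and cardiomyocyte-like sums, the shares were 33% and 100%. Each simulation gave every gene the same fixed spread and changed only genes with many UMIs. Neither held differences of diet, sex or cluster make-up, so these shares are not the power of the tests on these data. The members, lists and tests were chosen with earlier results of these data known. All members are named, the called genes of each list, and the 3 genes most like each member by Pearson r of log2(CPM + 1).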

Additional observations from a re-analysis of the deposited data

Results flagged for a closer look

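The YAP5SA contrast differed between fibroblast-like and cardiomyocyte-like nuclei by test for 3 members, with log2 differences of 2.55 for Ak1, 1.08 for Slc25a5 and 0.70 for Slc25a4. For Ak1 the cardiomyocyte-like sums were 31.4, 12.0, 27.9 and 20.3 CPM and the fibroblast-like sums 12.5, 43.9, 10.7 and 32.5 CPM in control chow, YAP5SA chow, control HFD and YAP5SA HFD.

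The remaining cases compare single libraries whose counting intervals leave out 0, and the difference between the contrasts was not tested. Ak1 in cardiomyocyte-like nuclei was lower on HFD than on chow in the controls (-0.17) and higher in YAP5SA (0.76). Ckmt2 in endocardial-like nuclei moved by -1.06 with HFD in the controls and by 0.96 in YAP5SA, at 45.5, 12.0, 21.8 and 23.5 CPM from 64, 29, 66 and 56 UMIs. Myh6 in the endocardial-like nuclei stood at 543, 87.3, 328 and 155 CPM, and the part of stray muscle RNA there was not tested. Ckmt2 in macrophage-like nuclei, at 95.2, 8.83, 22.3 and 38.8 CPM from 58, 6, 18 and 80 UMIs, gave a YAP5SA contrast of -3.33 on chow and 0.77 on HFD, and an HFD contrast of -2.07 in the controls and 2.03 in YAP5SA. Myh6 in the same macrophage-like nuclei stood at 1943, 162, 508 and 307 CPM, and its part in these values was not tested.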

How the results depend on the processing

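With 2 libraries per arm, fits without 1 library take their spread from the other arm alone, and the counts of called genes moved more than the members. In cardiomyocyte-like sums 2084 genes were called, 3459 without the filter on low counts, 79 in cluster 7 alone and 700 without cluster 22, and 1291 to 2646 with 1 library left out. The 3 members called there became 0 in cluster 7 alone and 1 without cluster 22, and 1 to 5 with 1 library left out. Ckb ran from -0.26 without the YAP5SA chow library to 0.42 without YAP5SA HFD, and Ckmt2 turned to 0.08 in cluster 7 alone. In fibroblast-like sums 1940 genes were called, 3164 without the filter and 747 to 2886 with 1 library left out, and 2 to 3 members. In blood vessel endothelial-like sums 53 genes were called, 25 with RLE size factors, 102 with DESeq2, 699 without the filter (then with 1 member, Ckm), 16 with diet as a term and 0 to 642 with 1 library left out (0 to 1 members). Ckmt2 turned there to 0.47 without YAP5SA chow and 0.23 without control HFD, against -0.77 without YAP5SA HFD, and Ak1 to 0.32 without YAP5SA chow, against -3.00 without YAP5SA HFD. Over all nuclei 403 genes were called, 1567 with DESeq2, 1819 without the filter and 245 to 646 with 1 library left out, where Ak1 ran from -0.53 without control HFD to 0.08 without control chow. The contrast between classes called 2186 genes, and 1179 to 2750 with 1 library left out, when 1 to 3 members were called; these settings were chosen after seeing the data, as was leaving out cluster 22. Within HFD, the YAP5SA contrast of Ckmt2 turned to 0.28 in cluster 7 alone and 0.09 without cluster 22, and that of Ak1 to 0.16 in cluster 7 alone. In that cluster 3 members were lower on HFD in each arm; Ckmt2 turned to -0.16 in the controls, and Ckm and Slc25a4 both to -0.04 in YAP5SA. The Ckm share in cluster 7 was 91.6% in control chow, 78.3% in YAP5SA chow and 84.7% in YAP5SA HFD, and 68.3% in YAP5SA chow without cluster 22; the Slc25a4 share in cluster 7 was 90.8% in control chow, 91.4% in YAP5SA chow and 90.9% in control HFD. Sums of 1 cluster hold fewer nuclei; the other causes were not tested. No paired analysis was possible because each group holds 1 library, whose replicate number is only a name; diet, which both arms share, was fitted as a term, and in cardiomyocyte-like sums it left 2163 genes and 3 members called, with Ak1 (edgeR adjusted p = 0.0416) in place of Slc6a8 (0.0584).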
